A study of Homo sapiens with 18 samples.

Results

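Transcripts of 10 genes of glucose breakdown were followed through erythroid differentiation: the enzyme genes HK1, GPI, ALDOA, ALDOC, ENO1, PKM, PKLR, LDHA and LDHB, and BPGM of the 2,3-bisphosphoglycerate branch. They were listed by name, out of 35616 genes in the deposited expression table and 12005 genes that passed the filter on low values, and all 10 members passed it. RNA came from HUDEP-2 cells, an established line of erythroid progenitors derived from human umbilical cord, either with the HBB gene disrupted (HBBko) or unedited (WT). The 6 groups, each of 3 libraries, were HBBko and WT cells undifferentiated, HBBko and WT cells after 48 h of differentiation, and HBBko and WT cells after 5 d of differentiation. The labels say that both lines were cultured and differentiated in triplicate, but not whether the triplicates were started separately or how many clones the HBBko line holds, so p values measure the spread between these libraries only.

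Glycolysis breaks glucose down to pyruvate, and red cells, which lose their mitochondria, depend on it for ATP. Several of its steps can be carried out by isozymes from different genes. Pyruvate kinase, the last step, comes from PKM in most proliferating cells and from PKLR in red cells and liver. The PKLR gene has an upstream start for the red cell form (R) and a downstream start for the liver form (L). Lactate dehydrogenase is a tetramer of LDHA and LDHB subunits, and aldolase is made from ALDOA, the form of muscle and red cells, or ALDOC, best known from brain. HK1 is the main red cell hexokinase, GPI converts glucose 6-phosphate to fructose 6-phosphate, and ENO1 makes phosphoenolpyruvate. BPGM makes 2,3-bisphosphoglycerate, which lowers the oxygen affinity of haemoglobin.

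In GENCODE 29 (GRCh38), PKM lies on the minus strand at chr15:72199029-72231822 and PKLR on the minus strand at chr1:155289293-155301438. LDHA lies at chr11:18394388-18408425 on the plus strand, LDHB at chr12:21635342-21757857 on the minus strand, and BPGM at chr7:134646808-134679813 on the plus strand. The 250 bases before each RefSeq start of the members (GRCh38.p14, 20 starts for 10 genes) were searched on both strands for AGATAA, letters bound by GATA factors, for CACCC, letters found in erythroid KLF1 sites, and for ACGTG, the core letters of hypoxia response elements and of CACGTG E-boxes. AGATAA was in 2 of the 20 windows, against 9.17% of 35116 windows of all RefSeq starts. CACCC was in 14 of the 20 windows, against 54.7% of all windows, and ACGTG in 8 of the 20, against 18.5%. Windows of nearby starts of a gene, such as those of HK1 at 69270000 and 69270005, overlap, so the same match can count more than once. By gene, AGATAA was found for 2 of 10, CACCC for 8 and ACGTG for 6, with no background counted by gene. The stretches below show how the R and L starts of PKLR, the gene at the centre of the switch, differ in these letters, with the starts of LDHA and BPGM for comparison. Each is given in the direction of transcription up to the first exon annotated in GENCODE 29, with whole matches in capitals.
PKLR, R start, chr1:155301439-155301688, minus strand: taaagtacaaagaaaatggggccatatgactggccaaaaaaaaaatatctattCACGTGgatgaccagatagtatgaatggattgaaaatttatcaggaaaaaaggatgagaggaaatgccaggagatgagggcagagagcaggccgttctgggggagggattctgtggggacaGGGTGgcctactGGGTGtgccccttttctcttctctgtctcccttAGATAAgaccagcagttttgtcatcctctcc
PKLR, L start, chr1:155301002-155301202, minus strand: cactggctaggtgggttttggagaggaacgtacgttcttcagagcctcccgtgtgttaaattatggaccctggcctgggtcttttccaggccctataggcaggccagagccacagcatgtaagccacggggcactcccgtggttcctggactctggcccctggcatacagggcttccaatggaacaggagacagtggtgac
LDHA, chr11:18394313-18394387, plus strand: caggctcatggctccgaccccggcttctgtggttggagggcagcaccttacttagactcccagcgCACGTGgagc
BPGM, chr7:134646603-134646807, plus strand: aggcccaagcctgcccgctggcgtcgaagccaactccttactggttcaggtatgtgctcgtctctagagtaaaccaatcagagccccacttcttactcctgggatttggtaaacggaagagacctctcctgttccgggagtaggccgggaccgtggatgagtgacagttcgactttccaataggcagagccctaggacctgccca
The R start held AGATAA at position -31, the CACCC motif, read on the other strand, at -76 and -64 and CACGTG at -197, counted back from the start with -1 as the base before it. The whole 250-base window of the L start held none of the 3 motifs, nor did that of PKM. The windows of LDHA and BPGM run on past the printed stretches and held further matches there or across the end. For this LDHA start these were CACCC at -143 and -105 and ACGTG at -87 and -73. For BPGM it was ACGTG at -47. A match of letters is a description of the window and not a binding site.

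Levels are given in scaled TPM, the authors' TPM (transcript abundance per length and library) after a further scaling between libraries, whose sums ran from 783213 to 1508342. The number of reads is unknown. HBB, the disrupted gene, was at 4598 to 4983 scaled TPM in undifferentiated HBBko against 12454 to 22376 in WT, at 22102 to 24265 against 99196 to 132741 at 48 h, and at 69004 to 72650 against 427628 to 458719 at 5 d. HBB was thus lower in every HBBko library than in any WT library of its stage. All 10 erythroid markers averaged at least 1 scaled TPM in each group. Replicate 3 of undifferentiated WT and replicate 3 of WT at 48 h stood apart from the other libraries of their groups, with the most HBB. Differences were tested in one limma fit on log2(scaled TPM + 1) over all genes, with p adjusted by Benjamini and Hochberg, and a gene was called at an adjusted p under 0.05.

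The change from PKM to PKLR was a loss of PKM and not a gain of PKLR. PKM was at 429, 346 and 405 scaled TPM in undifferentiated HBBko, 5.76, 4.87 and 5.23 at 48 h, and 5.66, 2.84 and 4.40 at 5 d. In WT it was at 319, 244 and 214 undifferentiated, 5.13, 4.51 and 3.78 at 48 h, and 8.74, 6.005 and 12.2 at 5 d. Nearly the whole fall had taken place by 48 h, and no library at 48 h or 5 d came near an undifferentiated one. At 48 h PKM was 74.4-fold lower than undifferentiated in HBBko (log2 fold change -5.97 ± 0.21 SE, adjusted p = 1.64e-13) and 57.9-fold lower in WT (-5.56 ± 0.21, adjusted p = 3.91e-13).

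PKLR was already high before differentiation. It was at 209, 210.0 and 215 scaled TPM in undifferentiated HBBko, 196, 196 and 198 at 48 h, and 53.2, 55.2 and 49.05 at 5 d. In WT it was at 265, 232 and 285 undifferentiated, 207.4, 208.3 and 194 at 48 h, and 30.8, 39.2 and 30.6 at 5 d. Between the undifferentiated stage and 48 h its level thus moved little beside that of PKM, and at 5 d it was low in every library of both lines. The log2 fold change at 48 h against undifferentiated was -0.10 ± 0.08 in HBBko (adjusted p = 0.284, not called, but 0.00372 and called in a fit of only the groups compared and 0.0339 and called after rescaling to equal sums) and -0.35 ± 0.08 in WT (adjusted p = 0.0012, called lower). From 48 h to 5 d PKLR fell 3.74-fold in HBBko (-1.89 ± 0.08, adjusted p = 9.96e-13) and 6.06-fold in WT (-2.57 ± 0.08, adjusted p = 2.57e-14). In these bulk libraries, fewer cells of a kind and less RNA per cell cannot be told apart.

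**Figure D1:**
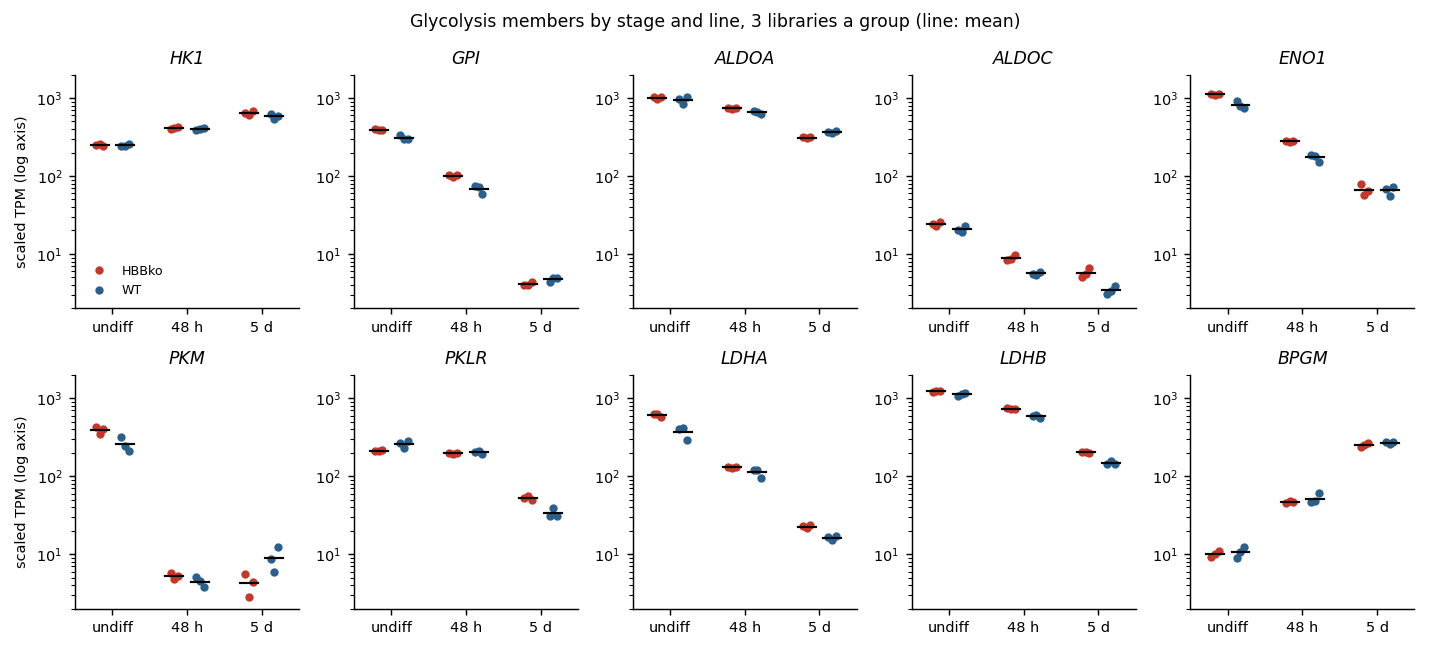
Level of each of the 10 genes in scaled TPM (log axis) in undifferentiated cells, at 48 h and at 5 d, HBBko red and WT blue, 1 point per library and a line at the mean of 3. PKM drops at 48 h, the larger drop of PKLR comes between 48 h and 5 d, and HK1 and BPGM are the genes whose own level is highest at 5 d.

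As a share of the summed scaled TPM of PKM and PKLR, PKLR took 32.8%, 37.8% and 34.7% in undifferentiated HBBko and 45.4%, 48.7% and 57.2% in undifferentiated WT. At 48 h the share was 97.4% ± 0.214 in HBBko and 97.9% ± 0.253 in WT, and at 5 d it was 92.4% ± 2.42 in HBBko and 78.7% ± 7.66 in WT (SD, n = 3 each). PKLR was therefore the main pyruvate kinase transcript from 48 h on in both lines, and its share was past its peak at 5 d. The log2 ratio of PKLR to PKM, which does not depend on how libraries are scaled, was higher at 48 h than undifferentiated by 5.80 on average over the lines, and at 5 d by 3.24. Both had an adjusted p of 0.00643 in a two-sided exact permutation test within line, where 0.005 was the smallest p possible before adjustment over 9 tests. Both comparisons use the same undifferentiated libraries.

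The lines differed in this ratio in opposite directions by stage. HBBko minus WT, the log2 ratio differed by -0.91 undifferentiated, -0.30 at 48 h and 1.71 at 5 d, and the libraries of the lines did not overlap at any of these stages. Averaged over stages, the difference was 0.17, with an adjusted p of 0.637 (two-sided exact permutation of line within stage). With 3 libraries against 3, a single stage cannot reach a p under 0.1 in such a test, so no p is given for a stage. In the fit over all genes, the HBBko against WT difference of PKM itself was lower at 5 d than undifferentiated by a log2 fold change of -1.52 ± 0.29 (adjusted p = 0.000581), and that of PKLR was higher by 0.94 ± 0.12 (adjusted p = 1.07e-05).

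**Figure D2:**
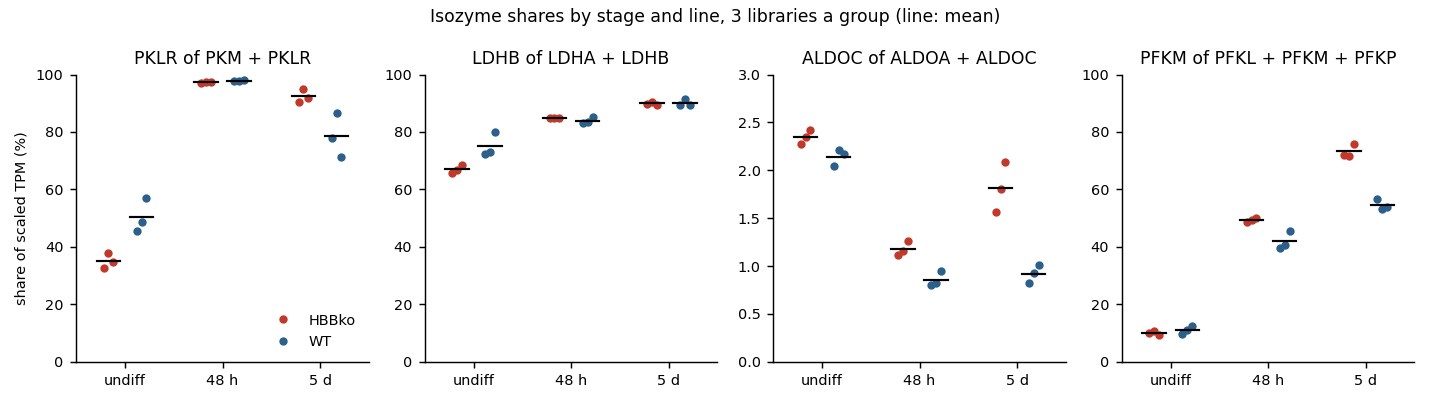
Share of summed scaled TPM (%) that one isozyme takes, per library (points) with the mean of 3 (line), HBBko red and WT blue. The PKLR share averages 35.1% in HBBko and 50.4% in WT undifferentiated and is above 97% in every library at 48 h; the aldolase panel has its own axis, up to 3%.

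Pyruvate kinase M1 and M2, which are splice forms of PKM, share a gene row and were not told apart. The R and L forms of PKLR also share a gene row, so its values are not those of the R form alone. Pseudogenes of PKM summed to at most 5.16% of PKM in any library. Genes whose products splice PKM (HNRNPA1, HNRNPA2B1, PTBP1, PTBP2 and SRSF3) moved far less than PKM at 48 h. In HBBko 3 of 5 were called lower, beside 40.1% of all tested genes, and HNRNPA1 was called higher (0.22 ± 0.06, adjusted p = 0.00416). In WT 3 of 5 were called lower, beside 41.4% of all tested genes. The largest of these falls were those of PTBP1 in HBBko (-0.45 ± 0.07) and PTBP2 in WT (-0.39 ± 0.09). Markers of mast cells, basophils and eosinophils fell at the same time as PKM. Their 5 genes summed to 593 to 684 scaled TPM in undifferentiated HBBko and 356 to 482 in undifferentiated WT, to 14.7 to 18.6 in HBBko and 11.4 to 13.7 in WT at 48 h, and to 26.4 to 37.4 in HBBko and 20.4 to 22.1 in WT at 5 d. Of that sum, the mast cell tryptase TPSAB1 made up 476 to 561 in undifferentiated HBBko and 305 to 433 in undifferentiated WT. Their part in the fall of PKM was not tested. The 4 megakaryocyte markers were low but also fell. They summed to 1.40 to 1.86 scaled TPM in undifferentiated HBBko and 3.83 to 4.32 in undifferentiated WT, to 0.102 to 0.194 in HBBko and 0.290 to 0.490 in WT at 48 h, and to 0.413 to 0.542 in HBBko and 0.229 to 0.393 in WT at 5 d. ITGA2B, the one of them that reached 1 on average, differed at 48 h against undifferentiated by -1.23 ± 0.09 in HBBko and -1.88 ± 0.09 in WT, and the part of these cells was not tested either. Of the neutrophil and monocyte, lymphoid, stromal and endothelial, and liver markers, none averaged 1 scaled TPM in any group.

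Lactate dehydrogenase moved from a mixture of LDHA and LDHB toward LDHB as both transcripts fell. LDHA was at 625, 619.9 and 574 scaled TPM in undifferentiated HBBko, 132, 129 and 132 at 48 h, and 23.1, 21.4 and 23.5 at 5 d. In WT, LDHA was at 408, 412 and 293 undifferentiated, 122, 119 and 96.2 at 48 h, and 16.7, 15.1 and 17.2 at 5 d. LDHA fell at each step in both lines, and its lowest undifferentiated library, WT replicate 3, is one of the libraries that stood apart. At 5 d LDHA was 26.7-fold lower than undifferentiated in HBBko (-4.68 ± 0.11, adjusted p = 1.15e-16) and 22.7-fold lower in WT (-4.41 ± 0.11, adjusted p = 2.29e-16).

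LDHB fell less. It averaged 1231 ± 31.9 scaled TPM in undifferentiated HBBko, 734 ± 11.2 at 48 h and 203 ± 2.01 at 5 d, and in WT 1120.2 ± 60.6 undifferentiated, 586 ± 27.4 at 48 h and 149 ± 8.69 at 5 d (SD, n = 3 each). The fall at 5 d against undifferentiated was 6.06-fold in HBBko and 7.52-fold in WT. LDHB thereby took 67.0% ± 1.49 of the LDHA and LDHB sum in undifferentiated HBBko and 75.1% ± 4.34 in undifferentiated WT, 84.9% ± 0.0483 in HBBko and 84.0% ± 1.12 in WT at 48 h, and 90.0% ± 0.455 in HBBko and 90.1% ± 1.08 in WT at 5 d. The log2 ratio of LDHB to LDHA was higher at 48 h than undifferentiated by 1.12 and at 5 d by 1.86 (adjusted p = 0.00643 each, two-sided exact permutation within line). Between the lines it differed by -0.17 on average over stages, HBBko minus WT (adjusted p = 0.139, exact permutation). Their libraries overlapped at 48 h and 5 d and were apart undifferentiated, where the difference was -0.59.

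Aldolase transcripts were almost wholly ALDOA. ALDOA ran from 961 to 1043 scaled TPM in undifferentiated HBBko and 850.1 to 1018 in undifferentiated WT, and at 5 d from 305 to 315 in HBBko and 354 to 382 in WT. ALDOC ran from 23.1 to 25.7 in undifferentiated HBBko and 19.2 to 22.5 in undifferentiated WT, and at 5 d from 5.02 to 6.64 in HBBko and 3.04 to 3.89 in WT. ALDOC took at most 2.42% of the aldolase sum in any library, and its share was larger in HBBko at each stage. That share averaged 2.35% ± 0.0746 in HBBko and 2.14% ± 0.0875 in WT undifferentiated, 1.18% ± 0.0737 and 0.859% ± 0.0792 at 48 h in HBBko and in WT, and 1.82% ± 0.26 and 0.918% ± 0.0947 at 5 d in HBBko and in WT (SD, n = 3 each). The log2 ratio of ALDOC to ALDOA was higher in HBBko by 0.53 on average over stages, with no overlap of libraries at any of the 3 stages (adjusted p = 0.00225, two-sided exact permutation of line within stage). Against undifferentiated cells it differed by -1.18 at 48 h and by -0.81 at 5 d (adjusted p = 0.00643 each, exact permutation within line).
The table also lists AC093512.2, a gene annotated over ALDOA, at 0.645% to 1.34% of ALDOA, and how reads were divided between them is not stated.

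BPGM and HK1 rose through differentiation. BPGM was at 9.15, 10.2 and 10.9 scaled TPM in undifferentiated HBBko, 45.6, 48.2 and 46.1 at 48 h, and 237, 248.8 and 269 at 5 d. In WT it was at 8.86, 10.7 and 12.4 undifferentiated, 46.2, 47.7 and 61.6 at 48 h, and 277, 256 and 276 at 5 d. The 3 stages did not overlap in either line. At 5 d against undifferentiated BPGM was 25.0-fold higher in HBBko (4.51 ± 0.11, adjusted p = 1.51e-16) and 25.3-fold higher in WT (4.55 ± 0.11, adjusted p = 1.50e-16), and it was not called between the lines at any stage. The intervals did not exclude small differences: HBBko over WT, its log2 fold change was -0.06 ± 0.11 undifferentiated, -0.14 ± 0.11 at 48 h and -0.10 ± 0.11 at 5 d.

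HK1, which opens the pathway by phosphorylating glucose, was at 252, 256 and 245 scaled TPM in undifferentiated HBBko, 405, 418 and 427 at 48 h, and 636, 614 and 679 at 5 d. In WT it was at 239.9, 241 and 261 undifferentiated, 390.1, 399 and 413 at 48 h, and 616, 542 and 584 at 5 d. HK1 climbed at each step in both lines, by 2.56-fold in HBBko (1.35 ± 0.05, adjusted p = 7.80e-14) and 2.35-fold in WT (1.23 ± 0.05, adjusted p = 2.96e-13) at 5 d against undifferentiated. The step from 48 h to 5 d in WT was called higher as deposited (0.53 ± 0.05) and lower after libraries were rescaled to equal sums (-0.11, adjusted p = 0.0332). HK2, the hexokinase of many proliferating cells, averaged 12.1 ± 0.814 scaled TPM in undifferentiated HBBko and 13.0 ± 0.604 in undifferentiated WT, and 0.0774 ± 0.0117 and 0.179 ± 0.0508 at 5 d in HBBko and in WT. HK1 therefore held 95.4% ± 0.245 of the HK1 and HK2 sum in HBBko and 94.99% ± 0.374 in WT before differentiation and 99.96% to 99.99% in the libraries at 5 d.

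GPI and ENO1 fell differently from PKM, with large losses after 48 h as well as before. GPI was at 397, 392.1 and 386 scaled TPM in undifferentiated HBBko, 103, 96.9 and 103 at 48 h, and 3.998, 3.97 and 4.41 at 5 d. In WT it was at 337, 294 and 294 undifferentiated, 74.7, 72.1 and 59.6 at 48 h, and 4.31, 4.92 and 4.90 at 5 d. GPI at 5 d was 94.98-fold lower than undifferentiated in HBBko (-6.26 ± 0.08, adjusted p = 8.36e-20) and 65.5-fold lower in WT (-5.76 ± 0.08, adjusted p = 2.91e-19). ENO1 averaged 1119 ± 18.4 scaled TPM in undifferentiated HBBko, 277 ± 5.86 at 48 h and 66.7 ± 10.7 at 5 d, and in WT 817 ± 81.2 undifferentiated, 173 ± 19.6 at 48 h and 65.2 ± 9.01 at 5 d (SD, n = 3 each). ENO1 was 16.8-fold lower at 5 d than undifferentiated in HBBko and 12.5-fold lower in WT.

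Counted over the members, 2 of 10 rose and 7 fell at 48 h against undifferentiated in HBBko, where 25.1% of all tested genes rose and 40.1% fell. In WT 2 rose and 8 fell, beside 23.5% and 41.4% of all tested genes. From 48 h to 5 d, 2 rose and 7 fell in HBBko (30.2% and 49.5% of all tested genes), and 3 rose and 7 fell in WT (30.8% and 49.5%). At 5 d against undifferentiated, 2 rose and 8 fell in each line, beside 31.4% and 54.4% of all tested genes in HBBko and 30.0% and 55.8% in WT. A fall was thus the commonest change of any gene, and the members stood apart more in size than in count. Their median log2 fold change at 5 d against undifferentiated was -2.29 in HBBko and -2.91 in WT, with medians of -0.33 and -0.36 over all tested genes. The comparisons within a line share libraries, so the counts at the different steps are not independent.

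**Figure D3:**
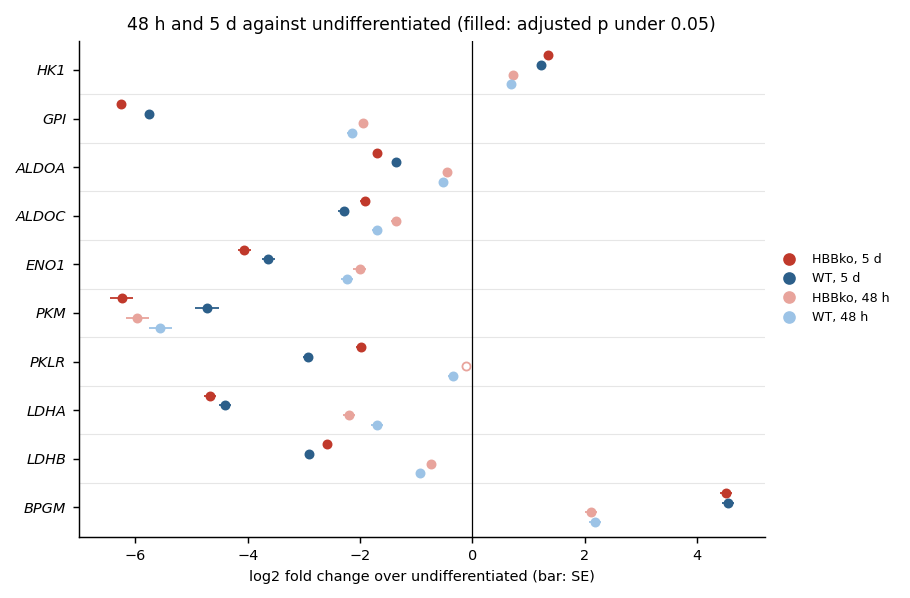
Log2 fold change over undifferentiated cells (bar: SE of the fit) at 5 d (dark) and at 48 h (light), HBBko red and WT blue; filled points passed an adjusted p of 0.05. HK1 and BPGM lie right of 0, the other 8 genes left of it, and PKM has its 48 h points next to its 5 d points while PKLR and GPI have them far apart.

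The third gene that rose between 48 h and 5 d in WT was PKM, by 0.83 ± 0.21 on the log2 scale (adjusted p = 0.00151), to 6.005 to 12.2 scaled TPM at 5 d against 3.78 to 5.13 at 48 h. In HBBko the same step gave -0.28 ± 0.21 (adjusted p = 0.226, not called). The difference between these 2 steps was itself called, at -1.11 ± 0.29 (adjusted p = 0.0113). The rise in WT was not called after libraries were rescaled to equal sums, where it was 0.27 with an adjusted p of 0.244, the only one of the alternatives run that ended the call.

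Before differentiation, HBBko cells had more transcript of most members of lower glycolysis and less PKLR. Of 10 members, 5 were higher and 1 lower in undifferentiated HBBko than in WT, where 20.9% of all tested genes were higher and 22.3% lower. LDHA differed most (0.72 ± 0.11, adjusted p = 6.02e-05), with 574 to 625 scaled TPM in HBBko against 293 to 412 in WT. PKM was higher by 0.61 ± 0.21 (adjusted p = 0.0247), ENO1 by 0.46 ± 0.11 (0.00338) and GPI by 0.35 ± 0.08 (0.00153). LDHB was higher by 0.14 ± 0.05 (adjusted p = 0.0376), and PKLR was lower, at -0.30 ± 0.08 (adjusted p = 0.00804). The libraries of the lines did not overlap for these 6 genes and ALDOC, 7 of 10 members, beside 46.2% of all tested genes. ALDOC gave 0.23 ± 0.09 (adjusted p = 0.0514) and was called when the replicate number was a block (adjusted p = 0.00645). The calls of PKM and LDHB were each lost in 6 alternatives, with adjusted p of 0.0606 to 0.156 for PKM and 0.0504 to 0.19 for LDHB. PKM was among the calls lost without HBBko replicate 1 or 3, or without WT replicate 2 or 3.

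At 48 h, 5 of 10 members were called higher in HBBko than in WT by limma and none lower, where 9.52% of all tested genes were higher and 9.21% lower. At an unadjusted p under 0.05, LDHA was also higher (0.23 ± 0.11, adjusted p = 0.152), and still none was lower. ENO1 was at 271 to 283 scaled TPM in HBBko and 151 to 188 in WT (0.68 ± 0.11, adjusted p = 0.000467). ALDOC was higher by 0.57 ± 0.09 (adjusted p = 0.000456), GPI by 0.56 ± 0.08 (9.11e-05), LDHB by 0.33 ± 0.05 (0.000327) and ALDOA by 0.19 ± 0.06 (0.0336). PKM and PKLR were not called between the lines at this stage, with log2 fold changes of 0.20 ± 0.21 and -0.05 ± 0.08. The call of ALDOA was lost in 7 alternatives (adjusted p 0.0612 to 0.163).

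At 5 d, 5 of 10 members were higher in HBBko and 2 lower, where 26.5% of all tested genes were higher and 24.8% lower. PKLR was at 49.05 to 55.2 scaled TPM in HBBko against 30.6 to 39.2 in WT (0.64 ± 0.08, adjusted p = 7.12e-06). PKM was at 2.84 to 5.66 in HBBko against 6.005 to 12.2 in WT (-0.90 ± 0.21, adjusted p = 0.00166). The pyruvate kinase genes thus both differed between the lines in the reverse direction of that before differentiation. ALDOC was higher in HBBko by 0.61 ± 0.09 (adjusted p = 3.68e-05), LDHA by 0.45 ± 0.11 (0.00204), LDHB by 0.45 ± 0.05 (1.77e-06) and HK1 by 0.15 ± 0.05 (0.0265), and ALDOA was lower, at -0.24 ± 0.06 (0.00264). GPI and ENO1, higher in HBBko at the earlier stages, gave -0.15 ± 0.08 and 0.03 ± 0.11 and were not called. Rescaled to equal library sums, ALDOA gave 0.09 (adjusted p = 0.175), the only one of the alternatives run that reversed its direction at 5 d. Its call was lost in 2 alternatives, with adjusted p of 0.0536 and 0.175. The call of HK1 was lost in 5 alternatives, with adjusted p of 0.0512 to 0.145.

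**Figure D4:**
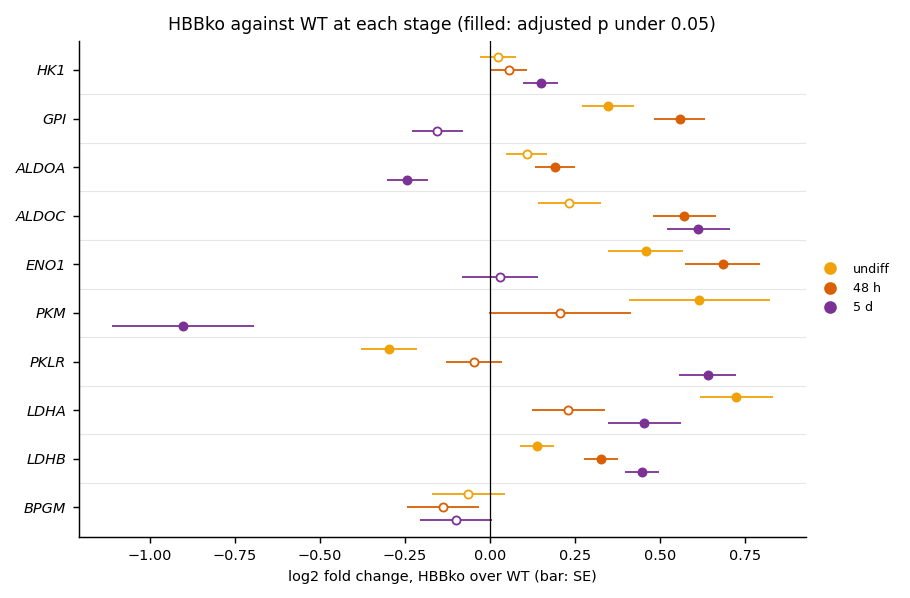
Log2 fold change of HBBko over WT (bar: SE of the fit) for each gene, undifferentiated, at 48 h and at 5 d; filled points passed an adjusted p of 0.05. PKM goes from right of 0 undifferentiated to left of it at 5 d, PKLR the opposite way, and LDHB is filled and right of 0 at all 3 stages.

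Over the 3 stages, LDHB was the one member called in the same direction each time, and BPGM the one never called. The test of whether the line difference itself changed between stages called 1 of 10 members from undifferentiated to 48 h (LDHA, background 13.2% of all tested genes), 5 of 10 from 48 h to 5 d (background 24.6%) and 7 of 10 from undifferentiated to 5 d (background 45.0%). GPI, ALDOA, ENO1 and PKM had lower HBBko over WT differences at 5 d than at 48 h, and PKLR a higher one. The LDHA call was lost in 15 alternatives (adjusted p 0.0501 to 0.15), and of the 7 from undifferentiated to 5 d, that of ENO1 was lost in 14 (0.051 to 0.525), that of ALDOC in 9 (0.0529 to 0.172), that of ALDOA in 2 (0.0633 and 0.592) and that of GPI in 1 (0.0834). From 48 h to 5 d, that of ENO1 was lost in 1 (0.053). In the authors' deposited table, HBBko over WT at 5 d was 0.65 ± 0.125 for PKLR (q = 1.15e-06) and -1.06 ± 0.419 for PKM (q = 0.0279), and undifferentiated it was -0.31 ± 0.102 for PKLR (q = 0.0141) and 0.61 ± 0.191 for PKM (q = 0.00928). In the authors' deposited table LDHB undifferentiated (q = 0.344) and HK1 at 5 d (q = 0.0896) were above 0.05.

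The scaling of libraries matters for the direction of small line differences. After rescaling to equal sums, the median HBBko over WT change of all tested genes was 0.03 undifferentiated, 0.14 at 48 h and 0.27 at 5 d, against -0.01, 0.02 and 0.02 as deposited. Of all calls, the share higher in HBBko was then 54.7% undifferentiated, 84.2% at 48 h and 86.0% at 5 d, against 48.4%, 50.8% and 51.7% as deposited. The isozyme ratios above do not change with the scaling.

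Of 20 other glycolysis genes, 12 passed the filter, and the remainder were too low to test. At 5 d against undifferentiated, 1 rose and 11 fell in HBBko, and 2 rose and 10 fell in WT. Among all tested genes, 31.4% rose and 54.4% fell in HBBko, and 30.0% rose and 55.8% fell in WT. The muscle phosphofructokinase PFKM rose in both lines, to 110.3 ± 9.34 scaled TPM at 5 d against 14.4 ± 0.649 undifferentiated in HBBko, and to 78.5 ± 3.57 against 14.8 ± 2.24 in WT. The platelet-type PFKP fell (-4.36 ± 0.14 in HBBko, -2.81 ± 0.14 in WT), as did HK2 (-3.60 ± 0.08 in HBBko, -3.57 ± 0.08 in WT) and the phosphoglycerate mutase PGAM1 (-2.92 ± 0.07 in HBBko, -2.34 ± 0.07 in WT). Phosphofructokinase transcripts thus also moved between isozymes, toward PFKM and mostly from PFKL. PFKM took 10.02% ± 0.562 of the PFKL, PFKM and PFKP sum in undifferentiated HBBko and 11.04% ± 1.30 in undifferentiated WT, and 73.2% ± 2.25 in HBBko and 54.5% ± 1.81 in WT at 5 d. PFKL took 62.2% in HBBko and 71.4% in WT undifferentiated, and still 26.1% in HBBko and 43.8% in WT at 5 d. PFKP took 27.8% in HBBko and 17.5% in WT undifferentiated, and 0.684% in HBBko and 1.71% in WT at 5 d. Between the lines, 6 of 12 were higher and 1 lower in undifferentiated HBBko, 5 higher and 1 lower at 48 h, and 4 higher and 4 lower at 5 d. Of all tested genes, 20.9% were higher and 22.3% lower undifferentiated, 9.52% and 9.21% at 48 h, and 26.5% and 24.8% at 5 d. Among the 12, PFKP, ENO2 and PGAM1 led the higher ones undifferentiated (0.76 ± 0.14, 0.53 ± 0.09 and 0.51 ± 0.07). LDHD, PFKP and PFKL led the lower ones at 5 d (-1.27 ± 0.08, -0.78 ± 0.14 and -0.67 ± 0.07).

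Of 8 genes of glucose and lactate transport, 4 rose and 4 fell in each line at 5 d against undifferentiated. Among all tested genes, 31.4% rose and 54.4% fell in HBBko, and 30.0% rose and 55.8% fell in WT. The red cell glucose transporter SLC2A1 was at 52.6 to 57.6 scaled TPM in undifferentiated HBBko and 66.0 to 100.1 in WT, and at 5 d at 1130 to 1225 in HBBko and 1464 to 1615 in WT. It rose by 4.40 ± 0.12 in HBBko and 4.25 ± 0.12 in WT, beside HK1 and BPGM, and was lower in HBBko than in WT at each stage (-0.53, -0.46 and -0.39 ± 0.12 each). The lactate exporter SLC16A3 fell with LDHA (-3.59 ± 0.14 in HBBko, -3.18 ± 0.14 in WT) and was higher in HBBko undifferentiated (0.83 ± 0.14), at 48 h (0.65 ± 0.14) and at 5 d (0.42 ± 0.14). Between the lines, 2 of the 8 were higher and 2 lower in undifferentiated HBBko, and 1 higher and 3 lower at 48 h. At 5 d SLC16A3 was the 1 called higher and 5 were lower, led by SLC2A4 (-0.67 ± 0.07) and SLC16A7 (-0.41 ± 0.16). Of all tested genes, 20.9% were higher and 22.3% lower undifferentiated, 9.52% and 9.21% at 48 h, and 26.5% and 24.8% at 5 d.

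Of 11 genes that handle fructose 2,6-bisphosphate, an activator of phosphofructokinase, and glucose phosphates, 6 were tested. At 5 d, 2 were higher in HBBko (G6PC3 and PGM2) and 2 lower, PFKFB3 (-1.40 ± 0.13) and PFKFB2 (-0.81 ± 0.09). Among all tested genes, 26.5% were higher and 24.8% lower. PFKFB3 was higher undifferentiated (0.63 ± 0.13), and the change between those stages was called (-2.03 ± 0.18, adjusted p = 5.61e-07). Of the pentose phosphate pathway, a branch off glycolysis, PGD (-1.04 ± 0.07), RPIA (-0.64 ± 0.06) and TALDO1 (-0.27 ± 0.06) were lower in HBBko than in WT at 5 d. Of 14 genes of pyruvate entry into mitochondria, 13 were tested. At 5 d against undifferentiated 2 rose and 8 fell in HBBko and 3 rose and 9 fell in WT. Among all tested genes, 31.4% rose and 54.4% fell in HBBko, and 30.0% rose and 55.8% fell in WT. The pyruvate carrier subunit MPC2 was among those of the 13 that rose (1.36 ± 0.09 in HBBko, 1.27 ± 0.09 in WT).

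Of 6 genes for transcription factors of PKLR and glycolysis genes, 4 rose and 1 fell in each line at 5 d against undifferentiated. Among all tested genes, 31.4% rose and 54.4% fell in HBBko at this step, and 30.0% rose and 55.8% fell in WT. KLF1, an erythroid activator of PKLR, averaged 1048 ± 41.7 scaled TPM in HBBko and 1377 ± 51.6 in WT at 5 d, against 303 ± 16.8 in HBBko and 445 ± 80.3 in WT undifferentiated. KLF1 thus rose (1.79 ± 0.09 in HBBko, 1.64 ± 0.09 in WT) over the time in which PKLR fell. KLF1 was lower in HBBko than in WT at each stage (-0.54, -0.46 and -0.39 ± 0.09 each), while PKLR was lower in HBBko undifferentiated and higher at 5 d. The part of KLF1 in the level of PKLR was not tested. MYC fell with the enzyme genes (-2.10 ± 0.05 in HBBko, -2.62 ± 0.05 in WT) and was higher in HBBko at 5 d (0.70 ± 0.05). Of 18 genes of the hypoxia response outside glycolysis, 15 were tested, and 6 rose and 6 fell in each line at 5 d against undifferentiated. Between the lines at 5 d, 3 of these 15 were higher and 7 lower in HBBko. Of all tested genes, 26.5% were higher and 24.8% lower. Among the 15, DDIT4 (-1.12 ± 0.13), EPAS1 (-1.01 ± 0.17) and MXI1 (-0.94 ± 0.07) led the lower ones.

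The genes with profiles most like those of the pyruvate kinases were ranked by the root mean square difference of log2 group means over the 6 groups, each profile centred on its own mean. For PKM they were CAPG (0.39), PALM2-AKAP2 (0.44), S100A11 (0.47), SIGLEC6 (0.48) and LITAF (0.48). CAPG, an actin capping protein gene, averaged 75.3 scaled TPM in HBBko and 83.6 in WT undifferentiated, and under 1.4 in each later group. For PKLR they were NTPCR (0.08), DNPH1 (0.13), TTC27 (0.15), LTBP4 (0.15) and CCDC58 (0.15). NTPCR averaged 20.7 scaled TPM in HBBko and 23.4 in WT undifferentiated, 19.3 in HBBko and 18.7 in WT at 48 h, and 4.80 in HBBko and 2.79 in WT at 5 d.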

How the data were processed

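Per the labels, RNA was extracted from HUDEP-2 WT and HBBko cells and made into TruSeq RNA v2 libraries. The submitters' processing notes name kallisto, sleuth and hg38, with no versions or transcript annotation. The authors deposited a signal per gene that the table's name calls TPM, with library sums of 783213 to 1508342, so it had been scaled between libraries in a step not stated in the sources used here. The other deposited tables, 1 for each of 3 stages, hold a log2 fold change and its standard error, and, per the file headers, a p value and a q value. The columns are named thal and wen; from the names, thal was taken for HBBko and wen for WT, and HBB levels ran lower in all thal libraries than in the wen libraries of the same stage.

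Genes reaching 1 scaled TPM in 3 or more libraries (12005 of 35616) were fitted as log2(scaled TPM + 1), with a pseudocount of 1, in limma 3.58.1 (R 4.3.3, lmFit and eBayes with trend), all 18 libraries together, 1 mean for each group and 12 residual degrees of freedom. Fold changes on this scale understate the changes of low genes. Tests were two-sided, over 12 contrasts, with p adjusted over all tested genes, and the script was tested on simulated data. Log2 isozyme ratios were compared by exact permutation, adjusted over 9 tests. Values ± SD are over libraries, and ± SE from the fit. Folds are ratios of group means. No counts are given, so depth is unknown and precision comes from the 3 libraries of a group.

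Members are the 10 listed genes, named in every comparison. Of other lists, called genes with the largest change were named, at most 3 a direction and comparison, and some further genes after their values were seen. The members, lists and tests were chosen with earlier results of these data known. Promoter sequences are from RefSeq (GRCh38.p14), all 10 members matching, and positions from GENCODE 29. Alternatives were other pseudocounts, filters and scalings, library weights, a fit of only the groups compared, a replicate block and leaving out each library. Replicate numbers come from the labels. Same-numbered libraries deviated together (correlation over 0.1 for each pair) between the lines undifferentiated (0.12 to 0.17) and at 5 d (0.13 to 0.18), and between 48 h and undifferentiated WT (0.10 to 0.19), but not in the other comparisons (-0.03 to 0.02 between the lines at 48 h).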

Additional observations from a re-analysis of the deposited data

Results flagged for a closer look

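For 8 of the 10 members, the HBBko against WT difference changed between stages by a test of the change itself (13 of 30 such limma contrasts at an adjusted p under 0.05). Of all tested genes, 13.2% were called for such a change from undifferentiated to 48 h and 24.6% from 48 h to 5 d. From undifferentiated to 5 d, 45.0% were called. The share of all genes called in any of these contrasts was not counted. Each value below is a log2 difference, the HBBko over WT change at the later stage minus that at the earlier one. Contrasts that share a stage share its libraries. For PKM the difference was -1.11 at 5 d against 48 h and -1.52 at 5 d against undifferentiated, and for PKLR it was 0.686 and 0.935. For GPI it was -0.711 at 5 d against 48 h and -0.502 at 5 d against undifferentiated, for ENO1 -0.655 and -0.429, and for ALDOA -0.433 and -0.350. At 5 d against undifferentiated it was 0.378 for ALDOC and 0.309 for LDHB. For LDHA the difference at 48 h against undifferentiated was -0.495.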

How the results depend on the processing

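Of 89 called results of the members, 74 kept their direction and their call under each alternative run, as did 54 of the 58 called changes between stages; no verdict on an isozyme ratio changed. The count of members whose line difference changed from undifferentiated to 48 h was 1 as reported, 0 with a pseudocount of 0.1, without a filter, after quantile normalization, after equal sums without globins and in a fit of only the groups compared, 3 after equal sums, 2 with the replicate block, and 0 to 2 with 1 library left out. With the block, ALDOC was also called in that contrast (adjusted p = 0.0194), and besides ALDOC undifferentiated the block changed no other call.

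Reversed directions are given here as log2 values, without an adjusted p where it was 0.05 or above. After equal sums, HBBko over WT was 0.0934 for PKLR and 0.00126 for BPGM at 48 h, and 0.113 for GPI, 0.0934 for ALDOA and 0.236 for BPGM (adjusted p = 0.0256) at 5 d. HK1 in WT at 5 d against 48 h was then -0.114 (adjusted p = 0.0332). After quantile normalization, HK1 undifferentiated was -0.0166, BPGM at 5 d 0.0195, and PKM in HBBko at 5 d against 48 h 0.0968. With library weights, BPGM undifferentiated was 0.0648 and ENO1 at 5 d -0.0255. PKLR in HBBko at 48 h against undifferentiated was 0.00666 after median-of-ratios rescaling. Changes of the line difference that reversed were, for BPGM, 0.0267 (48 h against undifferentiated) and 0.261 (5 d against undifferentiated) after equal sums, 0.0766 (5 d against undifferentiated) after quantile normalization and -0.0598 (5 d against 48 h) with library weights. For HK1 it was -0.00188 (48 h against undifferentiated) after equal sums without globins, and for ALDOC -0.0293 with a pseudocount of 5 and -0.00715 after quantile normalization (5 d against 48 h). With 1 library left out, HBBko over WT ranged from -0.179 to 0.0439 for BPGM undifferentiated and from -0.0915 to 0.133 for ENO1 at 5 d. The change of the line difference from undifferentiated to 48 h then ranged from -0.00678 to 0.0533 for HK1 and from -0.181 to 0.0549 for BPGM, that from 48 h to 5 d from -0.0523 to 0.119 for ALDOC and from -0.0912 to 0.113 for BPGM, and that from undifferentiated to 5 d from -0.144 to 0.0787 for BPGM. Of the reversed results, those called as reported were ALDOA at 5 d, which lost its call, and HK1 in WT at 5 d against 48 h, which was called lower. The other stage calls lost were those of PKM in WT after equal sums and of ALDOC in both lines after quantile normalization, all at 5 d against 48 h. The causes were not tested.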
